A study of Mus musculus with 12 samples.

Results

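The 9 genes described here are Sst, Hhex, Ghsr, Ly6h, Arg1, Ptprz1, Spock3, Adgrf5 and Fam159b, which mark somatostatin-producing δ-cells of the mouse pancreatic islet. They were chosen by name, with their high level in Sst-expressing cells of these same single-cell libraries already known, out of 31055 genes in the single-cell matrices and 45808 in the bulk table. Their difference between Sst-expressing cells and the other single cells is therefore given as a description without a test. The study compared islet cells that express pancreatic polypeptide (Ppy), called γ-cells, with the other endocrine cells. For single-cell RNA-seq, islets of Ppy-rtTA; R26-YFP mice of mixed strain background, 2 months old and given doxycycline at 1 mg/ml, were sorted into YFP+ and YFP- fractions in 2 experiments (4 libraries, 10x Chromium 3' counting). For bulk RNA-seq, YFP+ cells were sorted from Ppy-rtTA;TetO-Cre;R26-YFP mice (γ-cells, 5 libraries) and, as δ-cells, from 3 libraries of Sst-Cre;R26-YFP mice of the same age and mixed background. The γ-cell mice had doxycycline at 1 mg/ml. The labels attach the same treatment to the δ-cell samples, though they state its purpose as labelling Ppy-expressing cells, so whether the δ-cell mice received it is not clear. In the former the rtTA transactivator replaces the coding sequence of 1 Ppy allele, so that cells using Ppy under doxycycline become labelled for good. In the latter the recombinase is driven by Sst, so that any cell with a history of Sst expression can carry the label. Each single-cell experiment pooled the islets of several mice.

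Somatostatin is a short peptide hormone that restrains the secretion of insulin, glucagon and pancreatic polypeptide through receptors of the Sstr family on neighbouring islet cells. δ-cells depend on the homeodomain transcription factor Hhex, and they carry the receptor for ghrelin, encoded by Ghsr, through which ghrelin drives somatostatin release. Sst transcription is a textbook case of control by cAMP, acting through a short palindromic element just before its start.

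In the GRCm38 assembly the members lie on 9 different chromosomes, so that none neighbours another. Sst spans chr16:23889573-23890958 on the minus strand and Hhex chr19:37434810-37440731 on the plus strand. Ghsr lies at chr3:27371351-27378010, Ptprz1 at chr6:22875502-23052916, Spock3 at chr8:62951009-63357103 and Adgrf5 at chr17:43360451-43459557, all on the plus strand. Arg1 lies at chr10:24915221-24927484, Ly6h at chr15:75551268-75567255 and Fam159b, which GENCODE vM21 names Shisal2b, at chr13:104845283-104863893, all on the minus strand. No other annotated gene overlaps 7 of the 9, whereas 4 small predicted or small nucleolar RNA genes lie within Spock3 and 1 small nuclear RNA gene within Adgrf5. Of the RefSeq promoter windows (GRCm38.p6, from 250 bases before to 50 after a start), 7 of the 9 members had at least 1, and Ly6h and Arg1 had none in the table.

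The bases before the start were searched on both strands for the cAMP response element TGACGTCA, the homeodomain palindrome TAATTA and the TATA box core TATAAA. Only the Sst window held any of these, a cAMP response element that begins 48 bases before the start. It is shown because no other member with a window carries it. The 30 bases around it, at chr16:23890874-23890903 on the minus strand and written 5′ to 3′ with the element in capitals, are inside the gene model of GENCODE, which begins further upstream.
Sst: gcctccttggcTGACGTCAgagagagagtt
The element was found in 1.55% of the 32851 windows of this length, TAATTA in 4.84% and TATAAA in 12.4%. A match is a description of the letters only, and its absence says nothing about a factor.

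The 4 single-cell libraries held 5982 cells with 10683494 to 18330975 UMIs each and a median of 4237 to 8338 UMIs per cell, and any pair of libraries shared 1 to 6 cell barcodes. First, 128 cells marked as doublets were removed. In clusters with non-endocrine markers, 424 cells of experiment 1 and 990 of experiment 2 were set aside. Each remaining cell was called positive for Ppy, Gcg, Ins2 or Sst above a minimum in the density of that hormone. Monohormonal Sst+ cells numbered 128 in each experiment, all of them from the YFP- fractions. Gcg+ cells, and Ins2+ cells but for 1, also came from the YFP- fractions. Ppy+ cells came from the YFP+ fractions, except 1 cell in experiment 1 and 13 in experiment 2. Between Ppy+ cells and these other monohormonal classes, class and library can therefore not be told apart. Ppy+Sst+ cells numbered 180 in experiment 1 and 209 in experiment 2. Levels are CPM, the UMIs of a gene scaled to a common total for every class. Because 10x counts the 3' end once per molecule, CPM can be compared between genes without regard to length. Intervals in brackets are exact Poisson intervals for levels and exact binomial intervals for shares, at 95%, and cover counting error only. The Sst threshold split the cells clearly, with 8 of 2310 endocrine cells of experiment 1 and 26 of 2130 of experiment 2 within 0.25 (natural log) of it.

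The hormone gene itself set the scale. Sst reached 206823 CPM in Sst+ cells of experiment 1 and 147985 CPM in those of experiment 2. Sst UMIs were also found in every other class at a low level. It stood at 171 and 215 CPM in Ppy+ cells (experiments 1 and 2), 328 and 505 CPM in Gcg+ cells and 222 and 427 CPM in Ins2+ cells. In these classes between 63.7 and 97.9% of cells had a Sst UMI, and so did 61.8 and 62.7% of cells in the endothelial-like cluster led by Fabp4, Rbp7 and Flt1, where it stood at 465 and 615 CPM. Over both experiments, the share in the other non-endocrine clusters ran from 58.6% (led by Dcn) to 91.6% (led by Ctrb1). A Sst UMI was thus about as widespread in non-endocrine cells as in these classes. Whether it is background RNA was not tested.

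Hhex, the transcription factor of the set, was at 196 CPM (161 to 237) and 256 CPM (208 to 312) in Sst+ cells of experiments 1 and 2. In Ppy+ cells it was at 0.350 and 1.33 CPM, in Gcg+ cells at 0 and 1.59 CPM and in Ins2+ cells at 0.0968 and 0.769 CPM. A UMI of Hhex was seen in 52.3% (43.3 to 61.2) and 50.8% (41.8 to 59.7) of Sst+ cells, against 0.30 and 0.927% of Ppy+ cells. Among endocrine classes Hhex was therefore close to absent outside cells with Sst.

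Ghsr, the receptor, was the scarcest member in single cells. Only 5 UMIs in experiment 1 and 4 in experiment 2 were counted in Sst+ cells, which gave 9.17 CPM (2.98 to 21.4) and 10.4 CPM (2.82 to 26.5). These came from 3.91% (1.28 to 8.88) and 3.12% (0.858 to 7.81) of the cells. No Ghsr UMI was found in Ppy+, Gcg+ or Ppy+Gcg+ cells of either experiment, and 1 UMI each was found in Ins2+ cells of experiment 1 and Ppy+Ins2+ cells of experiment 2. The limit that a count of 0 allows in Ppy+ cells was 0.525 and 0.569 CPM (3 UMIs). At this depth, single cells cannot tell which δ-cells carry the receptor.

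Ly6h is a small glycolipid-anchored surface protein of the Ly6 family. It stood at 383 CPM (333 to 439) and 378 CPM (319 to 445) in Sst+ cells and at most at 1.54 CPM in the 5 classes below the Sst threshold. Ptprz1, a receptor-type tyrosine phosphatase that binds pleiotrophin, was at 80.7 CPM (58.7 to 108) and 122 CPM (89.4 to 162). It gave no UMI in Ppy+ cells, which allows at most 0.525 and 0.569 CPM. Sst+ cells were thus at least 154-fold and 214-fold higher. Spock3, a secreted proteoglycan, was at 23.8 CPM (12.7 to 40.8) in experiment 1 and 64.7 CPM (41.9 to 95.6) in experiment 2. Adgrf5, an adhesion G-protein-coupled receptor, ran the other way, at 58.7 CPM (40.2 to 82.9) and 18.1 CPM (7.29 to 37.4). For both genes the counting intervals of the 2 experiments did not overlap, so that their order among the members was not fixed by these data. Neither gene gave a UMI in Ppy+ cells.

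Arg1, the arginase that splits arginine into ornithine and urea, was at 389 CPM (338 to 445) and 386 CPM (326 to 453) in Sst+ cells, within the intervals of Ly6h. It was the member with the clearest level in a second endocrine class. In Gcg+ cells it reached 29.99 CPM (23.9 to 37.2) and 53.5 CPM (44.9 to 63.3), and in Ppy+Gcg+ cells 21.2 CPM (16.8 to 26.4) and 26.5 CPM (21.3 to 32.5). Ppy+ cells had 2.63 CPM (1.47 to 4.33) and 2.09 CPM (1.04 to 3.73). A UMI of Arg1 was present in 20 and 28.4% of Gcg+ cells, against 1.80 and 1.19% of Ppy+ cells at a similar depth (median 7776.5 and 6333.5 against 7662 and 5942 UMIs). Thinned to 1000 UMIs per cell, the shares were 4.69 and 6.10% against 0.450 and 0.265%. Sst+ cells were 13.0-fold and 7.21-fold above Gcg+ cells, but 148-fold and 185-fold above Ppy+ cells, which makes Gcg+ cells the nearest class for this gene. Gcg+ cells came from the same YFP- libraries as Sst+ cells, and nearly all Ppy+ cells did not. Ins2+ cells, all but 1 from the YFP- libraries, had 0.678 and 4.61 CPM of Arg1. Of the Ppy+Gcg+ cells, 336 and 332 came from the YFP+ libraries and 48 and 38 from the YFP- libraries. In experiment 1 Arg1 was at 19.1 CPM in the former and 38.0 CPM in the latter. The part of the library in these levels was not tested.

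Fam159b, a small shisa-like membrane protein, was the most abundant member after Sst, at 908 CPM (830 to 992) and 1191 CPM (1085 to 1305) in Sst+ cells. A UMI was seen in 92.2 and 95.3% of these cells. Its next classes were the Ins2+ cells, at 22.1 CPM (19.3 to 25.1) and 46.9 CPM (35.9 to 60.2), and the Ppy+Ins2+ cells, at 27.6 CPM (18.4 to 39.9) and 34.9 CPM (18.6 to 59.6), whose intervals overlapped in both experiments. Ppy+ cells had 2.28 and 4.36 CPM and Gcg+ cells 1.81 and 5.55 CPM. The Ins2+ cells were the deepest (median 23905 and 12623 UMIs), so that the share of them with a UMI, 30.4 and 36.6%, falls to 4.61 and 1.08% at 1000 UMIs. In Ppy+ cells the thinned share was 0.150 and 0.530%.

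**Figure D1:**
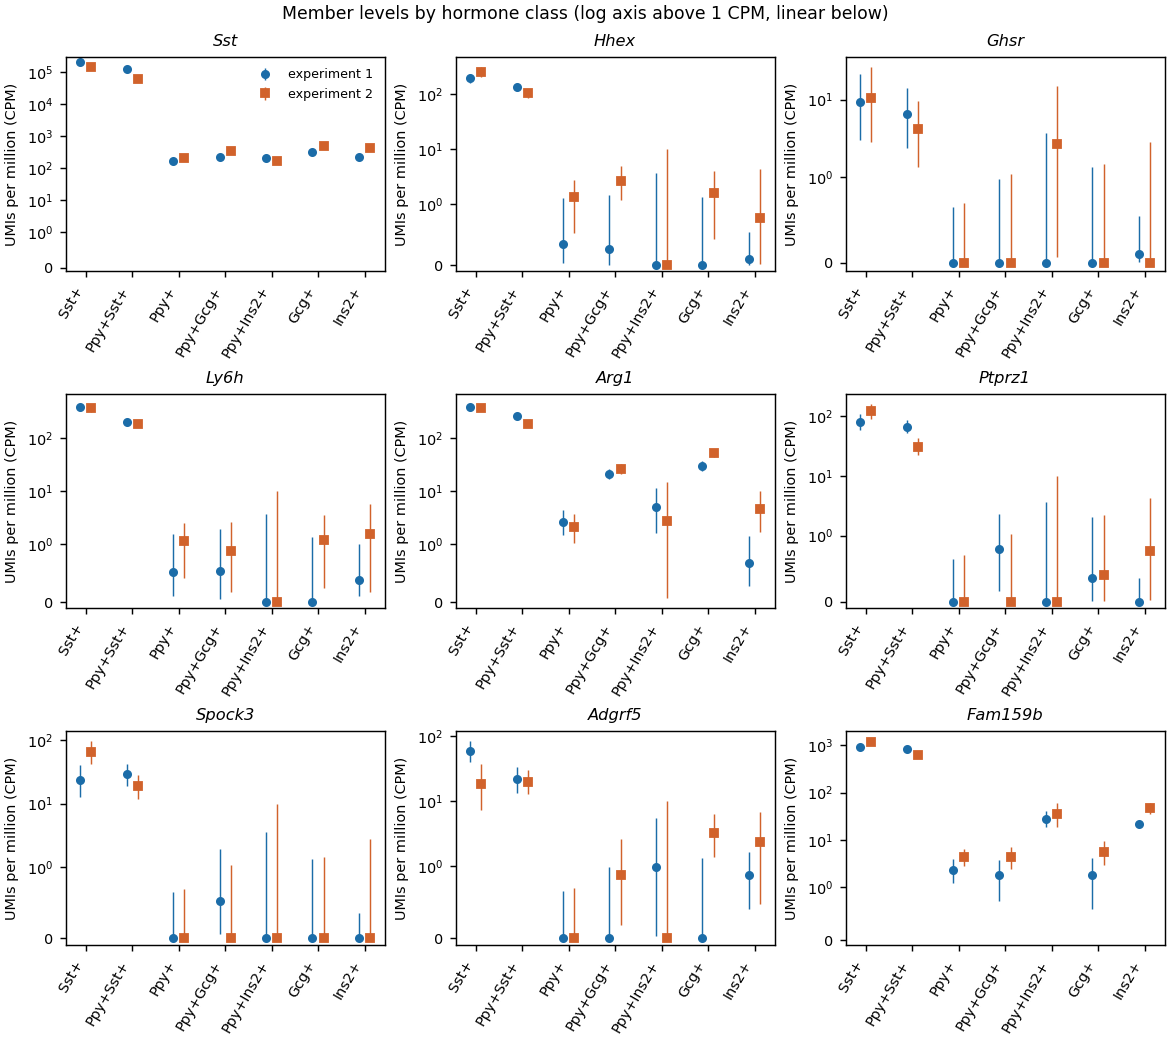
Level of each member (CPM of UMIs, log axis above 1 and linear below) in 7 hormone classes, as 1 point per experiment with exact 95% Poisson intervals. All 9 members are highest in the Sst+ and Ppy+Sst+ classes, with Arg1 also raised in Gcg+ and Ppy+Gcg+ cells (21.2 to 53.5 CPM) and Fam159b in Ins2+ and Ppy+Ins2+ cells (22.1 to 46.9 CPM).

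Single Sst+ cells carried several members at once. With each cell thinned to 1000 UMIs, 88.3% (81.4 to 93.3) and 91.4% (85.1 to 95.6) of Sst+ cells had a UMI of at least 1 of the 8 members other than Sst, and 50.8 and 51.6% had at least 2. Without thinning a Sst+ cell held 3.53 and 3.10 of the 8 members on average. Ppy+ cells had any of the 8 in 0.750 and 1.06% of cells at 1000 UMIs and at least 2 in none. The corresponding share was 5.00 and 6.71% in Gcg+ cells and 4.84 and 1.08% in Ins2+ cells, where Arg1 and Fam159b make up most of the UMIs.

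Outside the endocrine cells, 2 members had a second, strong source. Adgrf5 stood at 674 and 846 CPM in the endothelial-like cluster and was seen in 72.1 and 77.5% of its 68 and 169 cells. That exceeds its level in Sst+ cells (58.7 and 18.1 CPM) in both experiments. Hhex stood at 176 and 291 CPM in the cluster led by the acinar genes Ctrb1, Cpb1 and Try5, in 54.8 and 68.3% of its 73 and 82 cells. That is close to its level in Sst+ cells (196 and 256 CPM). Over all non-endocrine cells, the 14 acinar markers summed to 43694 CPM in experiment 1 but to 3566 CPM in experiment 2. The 14 ductal and mucous markers summed to 4895 and 7001 CPM over the same cells. Neither list was summed for the cluster led by Ctrb1 alone, which is named here only by its leading genes. In the cluster led by Dcn and Col3a1, Adgrf5 had no UMI in either experiment and Hhex was at 0 and 5.92 CPM. Ghsr had no UMI in any of the non-endocrine cells, and Ptprz1 and Spock3 were at most at 1.87 CPM in the sum of these cells.

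**Figure D2:**
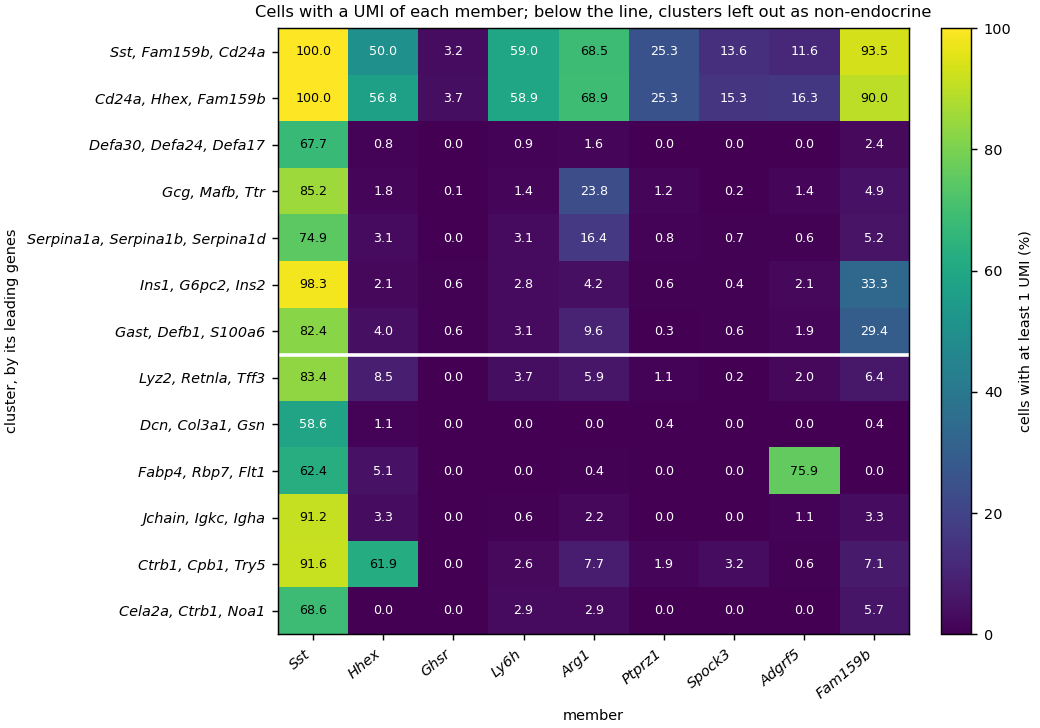
Percentage of cells with at least 1 UMI of each member (columns) in each cluster (rows, named by 3 leading genes), both experiments together and without thinning, with the clusters set aside as non-endocrine below the line. The 8 members other than Sst are most widespread in the top pair of rows, except that Adgrf5 reaches 75.9% in the cluster led by Fabp4 and Hhex 61.9% in the cluster led by Ctrb1.

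The genes whose pattern over the 7 classes was most like that of the members were looked for among 6328 genes with at least 10 CPM in Sst+ cells of both experiments. The measure was Pearson's r with the mean standardised level of the 8 members other than Sst, over 14 sums (7 classes in 2 experiments) that share libraries and depth, and it is a description. Cd24a, a cell-surface glycoprotein, came first (r = 0.991), at 734 and 888 CPM in Sst+ cells and at most 8.46 CPM in any class without Sst. It was followed by Ppp1r17, an inhibitor of protein phosphatase (r = 0.989), Fermt1, a kindlin adhesion protein (r = 0.986), Cacna2d2, an auxiliary calcium channel subunit (r = 0.982), and Mest (r = 0.982). Dlk1, a Notch-related membrane protein, reached r = 0.981, Acot7, a thioesterase, 0.980 and Rtp4 0.977. The members other than Sst, each of which is part of that mean, ranged from 0.882 for Arg1 to 0.992 for Ptprz1, while Ghsr fell under the limit of 10 CPM.

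Ppy+Sst+ cells were found in both fractions. Here 2 members were called lower in YFP+ cells in the main test, and these calls depended on the setting. In experiment 1 the 80 YFP- cells had 18323 CPM of Ppy and 190644 CPM of Sst, and the 100 YFP+ cells 123119 and 83791 CPM. In experiment 2 the 58 YFP- cells had 16558 CPM of Ppy and 145533 CPM of Sst, and the 151 YFP+ cells 148671 and 49281 CPM. These are UMI sums, in which deep cells weigh more. The median YFP+ cell had 39032 CPM of Ppy and 127532 CPM of Sst in experiment 1, and 78485 and 66682 CPM in experiment 2. The median YFP- cell had 15837 and 188949 CPM in experiment 1, and 10340 and 128465 CPM in experiment 2. Both hormones define the class, so these values were not tested. The other members were tested with edgeR's quasi-likelihood test on UMI sums per class and library, with the experiment as a covariate, over 9552 genes. All classes were fitted together. The spread was thus estimated over 20 sums, of which each group compared had 2. These members were chosen with their high level in Sst-expressing cells known, and the fractions already differed in Sst. A lower level of them in YFP+ cells is therefore not independent of the difference in Sst.

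In the UMI sums, where deep cells weigh more, Arg1 and Ly6h fell in YFP+ cells. Arg1 was at 196 and 154 CPM in YFP+ cells of experiments 1 and 2 and at 382 and 373 CPM in YFP- cells, giving a log2 fold change of -0.87 (standard error, SE, 0.19, edgeR adjusted p = 0.00729). Ly6h was at 174 and 144 CPM in YFP+ cells and 254 and 412 CPM in YFP- cells (log2 fold change -0.72, SE 0.19, adjusted p = 0.0449). These were 2 of the 7 members tested, where 0.513% of all genes were called lower in YFP+ cells. The median log2 fold change of the 7 members was -0.87, beside 0.04 for all genes. These comparisons with all genes are a description only. The members were chosen as high in Sst-expressing cells, and the YFP+ cells had less Sst. Both calls were lost with DESeq2 (0 of 7 members, 4 at an unadjusted p under 0.05), with cells thinned to 1000 UMIs and without the experiment as a covariate. They were kept with hormone genes left out of library sizes and without doublet removal. Leaving out the Ppy+Sst+ sums of 1 experiment left 1 sum per group, so no call is read from those fits. The log2 fold change of Ly6h was -1.08 without the sums of experiment 1 and -0.38 without those of experiment 2. For Arg1 it was -0.84 and -0.80. Ly6h was also lost under upper-quartile scaling (edgeR adjusted p = 0.0534) and, by its fold of -0.70, with no filter on low counts. At 1000 UMIs per cell, the log2 fold changes were -0.28 for Arg1 (SE 0.31) and -0.11 for Ly6h (SE 0.34). A UMI of Arg1 was then seen in 24.0 and 17.9% of YFP+ cells and in 25.0 and 25.9% of YFP- cells. For Ly6h these shares were 17.0 and 17.9% against 21.25 and 24.1%. In YFP- cells both genes were near the level of monohormonal Sst+ cells, except Ly6h in experiment 1.

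The other 5 members tested missed the threshold, with lower values in YFP+ than in YFP- cells in both experiments. Ptprz1 was at 49.0 and 18.4 CPM in YFP+ against 99.3 and 106 CPM in YFP- cells (log2 fold change -1.42, edgeR adjusted p = 0.0501). Ptprz1 was called with hormone genes left out of library sizes (edgeR adjusted p = 0.0447) and with no filter on low counts (edgeR adjusted p = 0.00583). It was not called under upper-quartile scaling, without doublet removal or with thinned cells. Fam159b was at 721 and 492 against 1031 and 1269 CPM (log2 fold change -0.63, adjusted p = 0.0522). Hhex was at 109.8 and 84.02 against 184 and 212 CPM (log2 fold change -0.78, adjusted p = 0.141). Spock3 was at 22.0 and 13.5 against 40.9 and 50.1 CPM (log2 fold change -1.15, adjusted p = 0.520), and Adgrf5 at 11.8 and 16.4 against 38.0 and 39.0 CPM (log2 fold change -1.10, adjusted p = 0.634). Ghsr had 4 and 5 UMIs in YFP+ and 2 and 0 UMIs in YFP- cells and was too low to be tested.

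The values of the YFP+ cells were a mixture of clusters. All YFP- Ppy+Sst+ cells lay in the cluster led by Sst, Fam159b and Cd24a. Of the YFP+ cells, 69 and 80 lay in it, 18 and 37 lay in a cluster with high Ppy, Gcg and Sst (the mixed cluster), and 13 and 34 lay elsewhere. Their median depth was 3714 and 2853.5 UMIs in the Sst cluster, 12446 and 8755 in the mixed cluster and 4418 and 6814 elsewhere. Doublet removal took 2 and 3 cells from the YFP+ libraries and 59 and 64 from the YFP- libraries. The main caller marked a share of cells fixed in advance per experiment. Its artificial doublets mixed cells of both fractions, so these counts do not measure the doublets in each fraction. The part of doublets in the levels below was not tested. Hhex was at 208 and 189 CPM in YFP+ cells of the Sst cluster, at 32.0 and 57.6 CPM in those of the mixed cluster and at 36.3 and 36.5 CPM in the others. Arg1 was at 378 and 389, 68.0 and 99.5, and 12.1 and 41.7 CPM in the same order. Restricted to the Sst cluster, the test called none of the 7 members (edgeR, with 0 at an unadjusted p under 0.05, and DESeq2 was not run on this subset), with log2 fold changes of 0.07 for Arg1 (SE 0.20) and 0.23 for Ly6h (SE 0.20). The clusters were built on the expression of these genes among others, so that cells low in them are less likely to fall in this cluster.

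Transcripts typical of other cell types also differed between the fractions. In Ppy+Sst+ cells of experiments 1 and 2, the summed level of 16 lymphoid markers was 18.6 and 8.69 CPM in YFP+ and 470 and 551 CPM in YFP- cells, with 14 and 13 against 10 and 9 of the markers at 0. The 14 acinar markers summed to 270.2 and 240.5 CPM in YFP+ and to 826 and 612 CPM in YFP- cells. Ins2 stood at 1959 and 1024 CPM in YFP+ and at 9999 and 3863 CPM in YFP- cells. The part of these differences in the members' values was not tested. Each fraction was a droplet library of its own, so the library and YFP cannot be told apart.

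**Figure D3:**
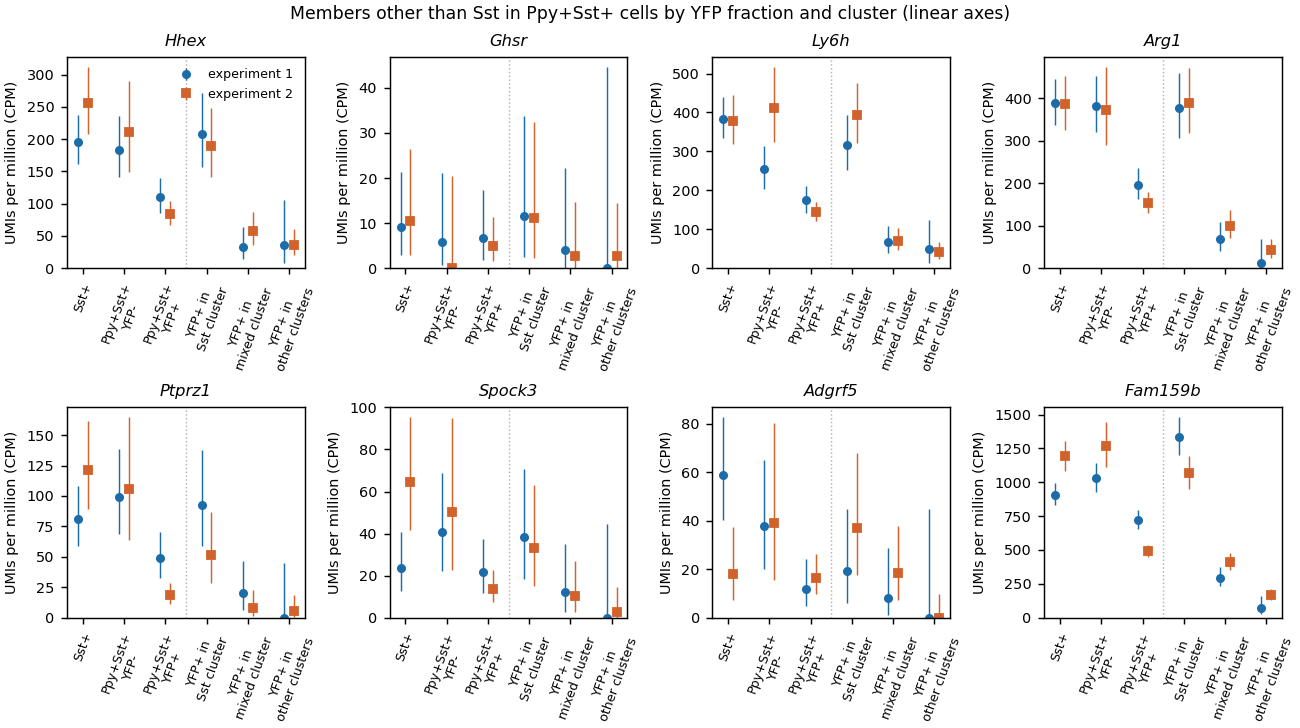
Level of the 8 members other than Sst (CPM of UMIs, linear axes) in Sst+ cells, in Ppy+Sst+ cells of the YFP- and YFP+ fractions and, right of the dotted line, in the YFP+ cells by cluster, as 1 point per experiment with exact 95% Poisson intervals. YFP+ cells lie below YFP- cells in both experiments for every member shown but Ghsr, while YFP+ cells of the Sst cluster lie near Sst+ cells for Arg1 (378 and 389 CPM) and those of the mixed cluster below (68.0 and 99.5 CPM).

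Sst also met Gcg in single cells. Ppy+Gcg+Sst+ cells numbered 51 and 77 in experiments 1 and 2, and Gcg+Sst+ cells 21 and 48. They were deeper than Sst+ cells, with medians of 12540 and 11300 UMIs and of 12854 and 9922 UMIs against 4116 and 3013. Sst stood at 45694 and 25445 CPM in Ppy+Gcg+Sst+ cells, and Hhex was at 78.6 and 65.4 CPM. Fam159b was at 242 and 286 CPM and Arg1 at 114 and 113 CPM in the same cells. In Gcg+Sst+ cells Hhex was at 95.8 and 105 CPM, Fam159b at 262 and 407 CPM and Arg1 at 142 and 149.8 CPM. All 3 genes were thus at intermediate levels, below Sst+ and above Ppy+ or Gcg+ cells. The part of cell doublets in these values was not tested.

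The bulk libraries are other samples than the single cells in which the members were known to be high, and were used to test γ- against δ-cells. Earlier results of these data were known when the members were chosen, and the δ-cells were sorted through Sst. A lower level of the members in γ-cells is therefore not independent of the choice or of the sort. The 5 γ-cell libraries held 14633838 to 31784878 counts and the 3 δ-cell libraries 7641916 to 11773598. Values are CPM of reads after TMM scaling, given for γ-cell libraries 1 to 5 and then δ-cell libraries 1 to 3. The fold change is γ over δ on the log2 scale, and its standard error (SE) is the size of the log2 fold change divided by the square root of the F statistic. Calls needed an adjusted p no higher than 0.05 and a log2 fold change of 1 or more in either direction, in edgeR's quasi-likelihood test over 17926 genes. In sorted bulk cells, fewer cells of a type and less RNA per cell cannot be told apart. The labels do not say that libraries came from separate animals, so that p-values measure the spread between these samples, which may be technical. The γ-cell libraries were read paired-end and the δ-cell libraries single-end on another instrument, a difference that cannot be told apart from cell type.

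Of the 9 members, 8 fell in γ-cells and 1, Ly6h, did not pass the test, where 14.2% of all genes tested were called lower and 35.0% were called in either direction. The members' median log2 fold change was -2.06, beside -0.06 for all genes. For the 8 members called, no γ-cell library reached the lowest δ-cell library. The share of all genes tested that lack such overlap was not computed, so this count has nothing to be set against. With upper-quartile scaling the split of calls over all genes moved from 3715 higher and 2553 lower to 3055 higher and 3746 lower, and the median of all genes to -0.35. The 8 members were called lower there too. Some marker lists of other cell types were lower in the γ-cell libraries as well, with no overlap for the acinar, ductal and glial lists. The ductal and mucous markers summed to 1501 to 1781 CPM in γ-cells and 2362 to 3850 CPM in δ-cells (9 of 13 tested called lower, 1 higher), and the glial markers to 5.94 to 16.4 and 27.8 to 87.0 CPM (3 of 6 lower). Their part in the members' fall was not tested.

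Sst stood at 7400, 9347, 9220, 9732 and 12553 CPM in γ-cells and at 60322, 81958 and 87505 CPM in δ-cells (9650 ± 1856, SD, n = 5, and 76595 ± 14363, SD, n = 3). The log2 fold change was -2.99 with an SE of 0.23, and since δ-cells were sorted through Sst it is a check of the sort. The γ-cell libraries held Sst above the 171 and 215 CPM of single Ppy+ cells, but the measures and the cells differ. Bulk values are CPM of reads from all YFP+ cells, and the single-cell values are CPM of UMIs from monohormonal cells only. The single-cell YFP+ fractions also held 100 and 151 Ppy+Sst+ cells, of 1300 and 1498 cells before doublets were removed. The part of such cells in the bulk level was not tested. Ppy checked the labels from the other side, with 108279 ± 13575 CPM in γ-cells and 11813 ± 3259 CPM in δ-cells (SD, n = 5 and 3). The γ-cell libraries also held more of the α- and β-cell hormones. Gcg stood at 69979 ± 18762 CPM in γ-cells and 3055 ± 2390 CPM in δ-cells (log2 fold change 4.52), Ins2 at 11582 ± 4418 and 1321 ± 733 CPM (3.13) and Ins1 at 1744 ± 821 and 139 ± 83.5 CPM (3.64, SD, n = 5 and 3), and all 3 were called higher in γ-cells in 15 of 15 alternatives. Their part in the results on bulk libraries was not tested.

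Hhex stood at 37.3, 33.1, 43.2, 51.0 and 57.6 CPM in γ-cells and at 211, 177 and 235 CPM in δ-cells. The groups did not overlap, and the log2 fold change was -2.23 (SE 0.18, edgeR adjusted p = 2.41e-06). Ghsr, which single cells could hardly resolve, had 5.43, 4.36, 6.18, 9.62 and 15.2 CPM in γ-cells and 39.7, 40.7 and 73.2 CPM in δ-cells. Its fall of 2.66 on the log2 scale (SE 0.38, edgeR adjusted p = 0.000189) makes it the third largest fall among the members. The receptor of ghrelin thus had a clear difference in bulk, with δ-cell library 3 high among its group and γ-cell library 5 among the other.

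Ptprz1 had the largest fall of the members. It stood at 9.88, 12.1, 8.25, 6.96 and 22.6 CPM in γ-cells and 91.7, 74.9 and 138 CPM in δ-cells, giving a log2 fold change of -3.10 (SE 0.35, edgeR adjusted p = 3.25e-05). Spock3 had the smallest fall among those called. Its levels were 10.3, 15.4, 13.1, 16.1 and 28.3 CPM in γ-cells and 40.8, 50.6 and 53.8 CPM in δ-cells, giving a log2 fold change of -1.55 (SE 0.28, edgeR adjusted p = 0.000848).

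Adgrf5 stood at 16.5, 17.8, 16.7, 21.7 and 24.3 CPM in γ-cells and at 95.8, 55.0 and 89.6 CPM in δ-cells, giving a log2 fold change of -2.05 (SE 0.20, edgeR adjusted p = 9.75e-06). Because this gene was high in endothelial-like single cells, the 12 endothelial markers are given beside it. They summed to 44.8 to 94.2 CPM over the γ-cell libraries and to 312, 74.0 and 73.1 CPM in δ-cell libraries 1 to 3, and 5 of 12 were called lower in γ-cells. Without δ-cell library 1, the one high in these markers, the log2 fold change of Adgrf5 was -1.89. The part of endothelial RNA in the Adgrf5 difference was not tested. Hhex, high in the single-cell cluster led by Ctrb1, was called lower beside an acinar list that was also lower. This list summed to 2368 to 14612 CPM in γ-cells and 21124 to 89772 CPM in δ-cells, with 14 of 15 markers called lower. δ-cell library 3 had the least of these markers (21124 CPM) and the most Hhex (235 CPM) of its group. The ductal and mucous list, given above, was lower in γ-cells as well. The part of acinar or ductal RNA in the Hhex difference was not tested.

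Arg1 had the smallest SE of the members, with 70.5, 92.6, 103, 86.5 and 86.4 CPM in γ-cells and 335, 414 and 349.7 CPM in δ-cells. Its log2 fold change was -2.06 (SE 0.13, edgeR adjusted p = 5.23e-07). Fam159b stood at 33.8, 24.5, 43.4, 37.3 and 42.9 CPM in γ-cells and 116, 136 and 149.7 CPM in δ-cells (log2 fold change -1.88, SE 0.17, edgeR adjusted p = 7.60e-06). The groups did not overlap for either gene.

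Ly6h was the exception. It stood at 6.18, 7.27, 13.1, 9.38 and 17.5 CPM in γ-cells and at 7.01, 11.2 and 10.7 CPM in δ-cells. The groups overlapped fully, and the log2 fold change was 0.14 (SE 0.35, edgeR adjusted p = 0.757). In single cells the same gene stood at 383 and 378 CPM in Sst+ cells and at 0.525 and 1.14 CPM in Ppy+ cells. The bulk libraries thus did not show the difference seen in single cells. Ly6h was low in the δ-cell libraries themselves, at 9.62 CPM of reads on average, far below its CPM of UMIs in Sst+ cells. Similar bulk values are therefore not read as equal levels in the 2 cell types, and the cause was not tested.

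**Figure D4:**
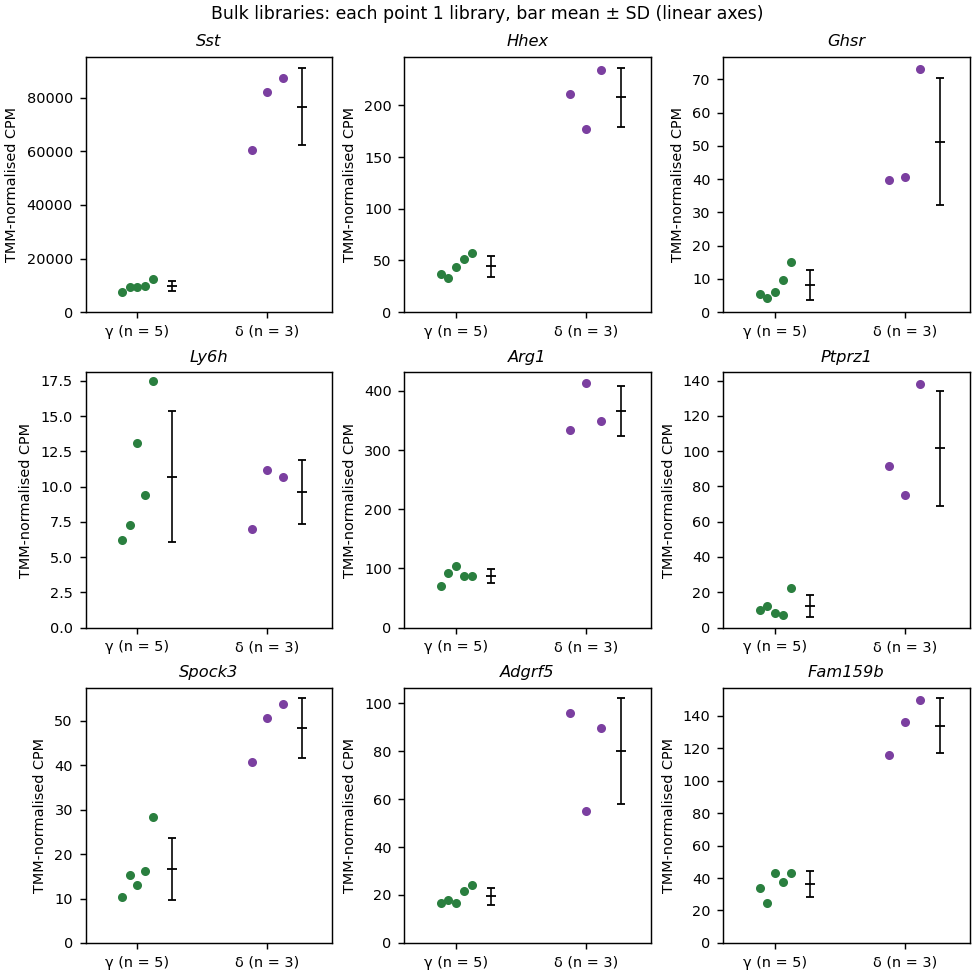
Level of each member (TMM-scaled CPM, linear axes) in the 5 γ-cell and 3 δ-cell bulk libraries, 1 point per library, with bars for the mean ± SD. The groups are apart for 8 members, and overlap for Ly6h (6.18 to 17.5 CPM in γ-cells, 7.01 to 11.2 CPM in δ-cells). The share of all genes with groups apart was not computed.

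Per kilobase of annotated exon, Sst led in δ-cells at 106235 CPM, followed by Arg1 at 164, Fam159b at 87.6 and Hhex at 41.1 CPM per kilobase. Ghsr at 11.5, Adgrf5 at 8.89, Spock3 at 8.01 and Ptprz1 at 7.13 CPM per kilobase came next, and Ly6h was last at 2.28. Neighbours among these 4 before Ly6h lay within the spread of the libraries. γ-cell library 5 was the highest of its group for 7 of the 9 members, and δ-cell library 3 for 6 of 9.

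Beside the members, 5 lists of related genes were read in the same bulk test, and were chosen with earlier results known. In ghrelin and somatostatin signalling (12 genes, 9 tested), 4 rose in γ-cells and 0 fell, with a median log2 fold change of 1.26, where 20.7% of all genes were called higher and 14.2% lower. Cort, which encodes a somatostatin relative, rose by 2.10 on the log2 scale, but was not called without δ-cell library 1 or 3. Ucn3, the peptide that drives δ-cells through Crhr2, rose by 1.75. It was among the leading genes of the single-cell cluster led by Ins1, and Ins1, Ins2 and Gcg were higher in the γ-cell libraries as well, a part in the rise of Ucn3, Sstr2 and Sstr3 that was not tested. The somatostatin receptors Sstr2 and Sstr3 rose by 1.62 and 1.26, from 4.62 ± 0.314 to 14.2 ± 2.17 CPM and from 71.4 ± 17.5 to 171 ± 20.3 CPM (SD, n = 3 and 5). Sstr3 was not called under upper-quartile scaling. The other receptor tested, Sstr1, had a log2 fold change of 0.37, and Sstr4 and Sstr5 were too low to be tested.

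The arginine and urea cycle list, which holds Arg1, had 7 of 9 tested genes lower in γ-cells and 1 higher (median log2 fold change -2.06). Of all genes, 14.2% were called lower and 20.7% higher. Arg1 itself is among the 7. Of the 7, only Arg1, Ass1 and Asl were called lower in all 15 alternatives. Nos3 was not called with no filter on low counts, with the replicate block or without δ-cell library 1, the one high in endothelial markers. Asl and Nos3 are named here after their values were seen. Ass1, which builds argininosuccinate, stood at 2.22 ± 0.611 CPM in γ-cells and 14.6 ± 1.51 CPM in δ-cells (SD, n = 5 and 3, log2 fold change -2.72). Cps1, which feeds the cycle, had 0 counts in all γ-cell libraries and 0.678, 9.75 and 0.0814 CPM in δ-cells, at least 133-fold lower in γ-cells if their summed count is set to the 3 that a count of 0 allows. Otc and Arg2 had log2 fold changes of -4.65 and -2.71. Cps1, Otc and Arg2 all rested on δ-cell library 2, and none of the 3 was called without it. Arg2 was also not called when any 1 γ-cell library was left out, nor Otc without γ-cell library 1, 4 or 5. Odc1, named here after its values were seen as the 1 gene higher, rose by 1.76.

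Among relatives of the members by family (15 genes, 10 tested), 2 rose and 3 fell (median 0.67). Of all genes, 20.7% were called higher and 14.2% lower, and the share that rose is near the former. Of the 3 that fell, Arg2 was called in 7 and Adgrf1 in 12 of 15 alternatives. Ptprg, a receptor phosphatase of the same family as Ptprz1, went the other way from it, with 29.4 ± 3.64 CPM in γ-cells and 7.55 ± 0.899 CPM in δ-cells (SD, n = 5 and 3, log2 fold change 1.96). Adgrf1 had a log2 fold change of -3.80 at levels up to 1.63 CPM, and was not called without δ-cell library 3. Arg2 and Cort, the others called, are given above, and Spock1, named after its values were seen, fell by 1.88 on the log2 scale. Among ligands and partners of Ptprz1, 1 of 8 rose and 2 fell (median 0.31), close to the 35.0% of all genes called in either direction. Nrcam, a cell adhesion molecule, rose by 3.15, and the ligands Ptn and Mdk fell by 1.39 and 1.34, neither of which was called without δ-cell library 1.

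Further genes known from δ-cells had 5 of 11 lower in γ-cells and 0 higher (median -1.01), beside 14.2% and 20.7% of all genes. Cd24a fell by 2.98, from 543 ± 86.3 to 68.8 ± 9.77 CPM (SD, n = 3 and 5). Neurog3, the transcription factor of endocrine progenitors, fell by 2.59 and Dlk1 by 2.23. Isl1, a transcription factor of all islet cell types, fell by 1.11 and was not called without δ-cell library 3. Cd24a and Dlk1 were also among the genes most like the members in single cells.

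**Figure D5:**
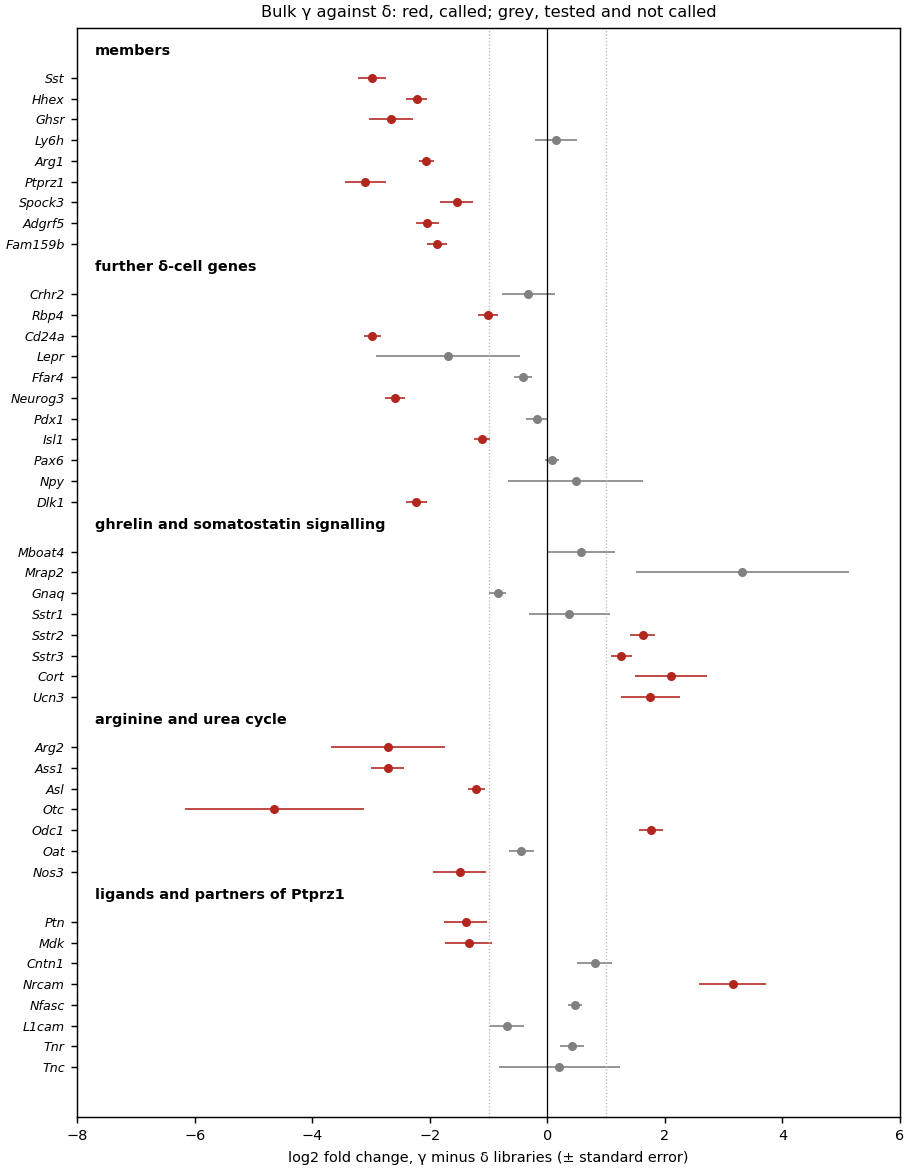
Log2 fold change (γ-cells over δ-cells, with standard errors) of the members and of the genes tested in 4 of the lists, each gene plotted once, in red where called and in grey where not, with dotted lines at a change of 1 either way. Relatives by family are plotted only where another list holds them, and Cps1, at 0 in all γ-cell libraries, is left out. The members lie between -3.10 (Ptprz1) and -1.55 (Spock3) except Ly6h at 0.14, and Sstr2 and Sstr3 lie on the other side.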

How the data were processed

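Single-cell and bulk RNA-seq of sorted mouse islet cells were analysed. The deposited single-cell matrices hold raw UMI counts made by the authors with Cell Ranger, and the deposited bulk table holds raw read counts per gene, which the authors aligned to GRCm38.p6 with STAR 2.7.2b and counted with HTSeq 0.9.1 in union mode. Of the bulk table, 6 columns with no sample in the labels used here were left out. The 9 members and all gene lists were chosen with earlier results of these data known. Besides the members, the text names up to 4 genes per list, those with the largest fold change among those called, and the 8 genes most like the members. Some further genes are marked as named after their values were seen.

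Scrublet marked 8 of 5982 cells (0.134%) as doublets and so had not worked. A neighbour-based caller was set in advance to mark 2% of the cells of each experiment, so the 120 it marked do not measure how many doublets there were. In all, 128 cells were removed, leaving 5854. Cells were clustered with Seurat 5.3.0 in R 4.3.3, clusters with at least 3 non-endocrine markers among 10 leading genes were set aside, and hormone classes were cut at 3.13 (Ppy), 4.98 (Gcg), 6.29 (Ins2) and 3.69 (Sst) on the natural-log scale. Shares were also read after thinning each cell to 1000 UMIs. UMI sums per class and library (20 sums of at least 10 cells) and bulk counts (genes averaging 5 or more per library) were tested with edgeR 4.0.16, by the quasi-likelihood test with TMM and Benjamini-Hochberg adjustment. Single-cell calls needed an adjusted p no higher than 0.05 and a natural-log fold change above 0.5. The YFP+ and YFP- sums share their experiment, according to the methods of the study, and experiment was a covariate. The scripts were tested on simulated data. Alternatives were DESeq2 1.42.0, other scalings and filters, thinned counts, other cell selections, blocks, and leaving out each bulk library or the Ppy+Sst+ sums of 1 experiment. Depth was 7641916 to 31784878 counts per bulk library and 10683494 to 18330975 UMIs per single-cell library. Intervals cover counting error only, and a count of 0 allows up to 3 counts. Python 3.11.15, scanpy 1.11.5 and scipy 1.17.1 were used for the levels.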

Additional observations from a re-analysis of the deposited data

Results flagged for a closer look

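Cells outside the comparisons, in clusters set aside as non-endocrine, held 2 members at high levels. Adgrf5 stood at 673.5 and 846 CPM in experiments 1 and 2 in the cluster led by Fabp4, against 58.7 and 18.1 CPM in Sst+ cells. Hhex stood at 176 and 291 CPM in the cluster led by Ctrb1, against 196 and 256 CPM in Sst+ cells, below in experiment 1 and above in experiment 2. Among the 5 γ-cell libraries no member had a library beyond Dixon's limit, the largest gap over range being 0.677 for Spock3 and 0.670 for Ptprz1.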

How the results depend on the processing

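In bulk, 8 members were called lower in γ-cells under each of the 15 alternatives run, and the genes called ranged from 5482 to 6255 when 1 library was left out. Ly6h, never called, changed sign under upper-quartile scaling (-0.14), with a replicate block (-0.19), and without δ-cell library 1 (-0.03) or γ-cell library 5 (-0.089), and ranged from -0.089 to 0.29 with 1 library left out. Without a filter on low counts, 3803 genes were higher and 3787 lower. The replicate numbers of γ- and δ-cell libraries did not pair (correlations -0.0952, 0.0678 and -0.274), and the replicate block on libraries 1 to 3 called 5383 genes and 8 members.

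For Ppy+Sst+ cells the calls depended on the setting. Beside 97 genes and 2 members, DESeq2 called 35 genes and 0 members (4 at an unadjusted p under 0.05), and upper-quartile scaling 1 member. With hormone genes left out of library sizes, 100 genes and 3 members were called, Ptprz1 beside Arg1 and Ly6h. No filter on low counts gave 116 genes and 2 members, Arg1 and Ptprz1. Without doublet removal, 93 genes and the same 2 members as in the main test were called. Cells thinned to 1000 UMIs gave 14 genes and 0 of 5 members (0 at an unadjusted p under 0.05). The median log2 fold change of these 5 members was -0.31 there. The Sst cluster alone gave 14 genes and 0 members (0 unadjusted), with reversed log2 fold changes of 0.074 for Hhex, 0.23 for Ly6h, 0.071 for Arg1 and 0.16 for Fam159b. The Sst and mixed clusters together, an alternative chosen after seeing the data, gave 52 genes and 0 members (5 unadjusted). With no replicate block for the pairing by experiment, 23 genes and 0 members (5 unadjusted) were called. Leaving out 1 experiment gave 25 to 43 genes and 0 to 2 members. These fits had 1 sum per group, so no call, kept or lost, is read from them. The log2 fold change of Arg1 was -0.84 without experiment 1 and -0.80 without experiment 2. For Ly6h it was -1.08 and -0.38. The causes of the dependence on the setting were not tested. Of the members' levels in Sst+ cells, 41 of the values under alternatives moved by less than 1 SD and 12 by more. Depth limits Ghsr most, with 5 and 4 UMIs in Sst+ cells.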
